A study of Mus musculus with 12 samples.

Results

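Aldo-keto reductases use NADPH to reduce aldehydes and ketones, and the mouse liver expresses members that act on sugars, on aldehydes from lipid oxidation and on steroids. The 9 genes described here are Akr1b7, Akr1b3, Akr1a1, Akr7a5, Akr1c6, Akr1c14, Akr1c13, Akr1c19 and Akr1c20. They are 9 of the 26748 gene identifiers in the deposited table and 9 of the 16 aldo-keto reductase genes in it. They were found by gene symbol, and the list had been chosen with measured values from these libraries known, among them the rise of Akr1b7 under bexarotene in floxed mice. That rise is therefore given as a description with no test, and the other p-values describe the fit and carry no independent weight. All 9 passed the filter on low values. Akr1b7 passed it only through the treated groups.

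RNA of hepatocytes, the main cell type of the liver, was sequenced from male C57BL/6 mice in 12 libraries, 3 in each of 4 groups. The groups were hepatic Rxra knockout mice given bexarotene, knockout mice without it, floxed mice given bexarotene and floxed mice without it. Bexarotene, an agonist of retinoid X receptors, was given once a day at 100 mg/kg for 5 days. Floxed mice carry Rxra with loxP sites, and the knockout removes it in liver. No age, driver of the deletion or vehicle is stated in the sources used here. Nothing in the labels says that libraries came from separate animals, so a p-value here speaks of the spread between libraries, part or all of which may be technical.

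Rxra itself, which encodes RXRα, stood at 26.1 to 27.8 TPM in treated knockout libraries and 26.9 to 33.1 TPM in knockout controls, against 79.6 to 85.3 TPM in treated floxed libraries and 79.5 to 86.1 TPM in floxed controls. TPM is read coverage per length of transcript, scaled to the same total in every library, so it can be compared between genes. The summed TPM of 8 hepatocyte markers was 66432 to 68720 in treated knockouts, 67467 to 77854 in knockout controls, 56506 to 60070 in treated floxed and 62285 to 71654 in floxed controls. In bulk RNA, fewer cells of a type and less RNA per cell cannot be told apart. The sums of 12 macrophage markers were 73.1 to 83.2 TPM in treated knockouts, 16.6 to 38.3 in knockout controls, 20.5 to 73.7 in treated floxed and 28.8 to 99.2 in floxed controls, and their part in the results was not tested. The 3 treated knockout libraries, and floxed controls 1 and 3, were near-identical and were averaged, which left 1 treated knockout sample, 3 knockout controls, 3 treated floxed samples and 2 floxed controls. Knockout control library 5 stood apart from libraries 1 and 2 of its group in clock genes. Its mean log2 level of evening clock genes minus that of morning clock genes was -1.80, against 1.54 and 1.5 in libraries 1 and 2. This gap was 0.72 to 0.82 in treated knockouts, 1.69 to 2.38 in treated floxed mice and -1.45 to -0.91 in floxed controls, so it moved with bexarotene in floxed mice. Its part in the results was not tested. By the spread beyond counting noise, in genes at a mean of 10 TPM or more, knockout controls 2 and 5 differed by 0.256 log2. Libraries 1 and 2 differed by 0.332 and libraries 1 and 5 by 0.485, so by this measure library 1 lay farthest from the others.

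RXRα binds DNA together with partner receptors, among them LXR, FXR, CAR, PXR and PPARα, at pairs of a short hexamer related to AGGTCA. Akr1b7 is known in mice as a target of LXR, PXR, CAR and FXR and is thought to clear toxic lipid aldehydes. The Akr1c genes lie in a cluster and are best known for oxidising and reducing steroids. Akr1c14, Akr1c13, Akr1c19, Akr1c6 and Akr1c20 lie in this order on chromosome 13, with other family members between them. Akr1b3 and Akr1b7 lie on chromosome 6, and Akr1a1 and Akr7a5 on chromosome 4.

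The 250 bases before the annotated start are shown for 4 genes that the results set side by side, namely Akr1b7, Akr7a5, which was called in no comparison, and Akr1c6 and Akr1c19 of the steroid cluster. They are RefSeq sequences of build GRCm38.p6, in which 7 of the 9 genes had an entry. Each is read 5′ to 3′ along the gene, and capitals mark a match to AGGTCA or to its variants GGTTCA and AGTTCA on either strand. Akr1b7 lies at chr6:34412112-34412361 on the plus strand, Akr7a5 at chr4:139310494-139310743 plus, Akr1c6 at chr13:4434093-4434342 plus and Akr1c19 at chr13:4233490-4233739 plus.
Akr1b7: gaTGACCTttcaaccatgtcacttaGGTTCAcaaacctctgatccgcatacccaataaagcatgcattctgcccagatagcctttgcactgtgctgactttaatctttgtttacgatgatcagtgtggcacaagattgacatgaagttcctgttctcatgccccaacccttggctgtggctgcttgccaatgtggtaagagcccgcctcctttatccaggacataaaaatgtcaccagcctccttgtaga
Akr7a5: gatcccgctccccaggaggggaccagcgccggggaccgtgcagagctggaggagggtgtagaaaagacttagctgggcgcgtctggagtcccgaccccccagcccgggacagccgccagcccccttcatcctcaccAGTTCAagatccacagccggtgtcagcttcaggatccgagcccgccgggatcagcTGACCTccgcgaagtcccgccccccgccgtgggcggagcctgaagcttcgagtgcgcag
Akr1c6: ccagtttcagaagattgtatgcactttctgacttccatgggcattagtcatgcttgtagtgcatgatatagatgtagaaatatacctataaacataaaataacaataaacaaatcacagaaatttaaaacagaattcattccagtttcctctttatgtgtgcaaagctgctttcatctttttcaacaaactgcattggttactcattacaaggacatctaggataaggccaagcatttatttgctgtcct
Akr1c19: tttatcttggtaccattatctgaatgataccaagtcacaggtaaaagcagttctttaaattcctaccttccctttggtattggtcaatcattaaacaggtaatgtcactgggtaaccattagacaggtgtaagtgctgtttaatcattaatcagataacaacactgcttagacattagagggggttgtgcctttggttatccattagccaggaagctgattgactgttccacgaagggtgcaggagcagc

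The Akr1b7 window held TGACCT, which is AGGTCA on the other strand, at -248 to -243 from the start and GGTTCA at -225 to -220. Akr7a5 also held 2 matches, AGTTCA at -114 to -109 and TGACCT at -59 to -54. Akr1c14 held 1, at -147 to -142, and none was found in the windows of Akr1a1, Akr1c6, Akr1c13 and Akr1c19. Over all 27025 promoter windows, 30.6% held at least 1 of the 3 hexamers and 5.94% held 2 or more. AGGTCA was in 13.8%, GGTTCA in 8.87% and AGTTCA in 11.9%. A match describes the letters only, and nothing about binding follows from a match or its absence.

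Akr1c6 was the most abundant member in every library and Akr1b7 or Akr1b3 the least. In floxed controls Akr1c6 averaged 754 ± 58.3 TPM and Akr1a1 339 ± 7.17 TPM (SD, n = 2 samples each). Akr7a5 at 92.8 ± 2.21, Akr1c13 at 89.9 ± 7.25, Akr1c14 at 80.1 ± 4.26 and Akr1c20 at 79.0 ± 3.09 TPM formed a middle group in which each overlapped the next. Akr1c19 followed at 51.1 ± 0.113 TPM, then Akr1b3 at 5.69 ± 1.16 TPM. Akr1b7 was near 0. The treated knockout kept Akr1c6 and Akr1a1 at the top, at 756 and 350.3 TPM, but there Akr1c19 stood at 21.8 TPM, the lowest of the Akr1c members. Treated floxed mice had Akr1c19 at 82.0 ± 11.4 TPM (SD, n = 3), above Akr1c20 and Akr1c14.

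**Figure D1:**
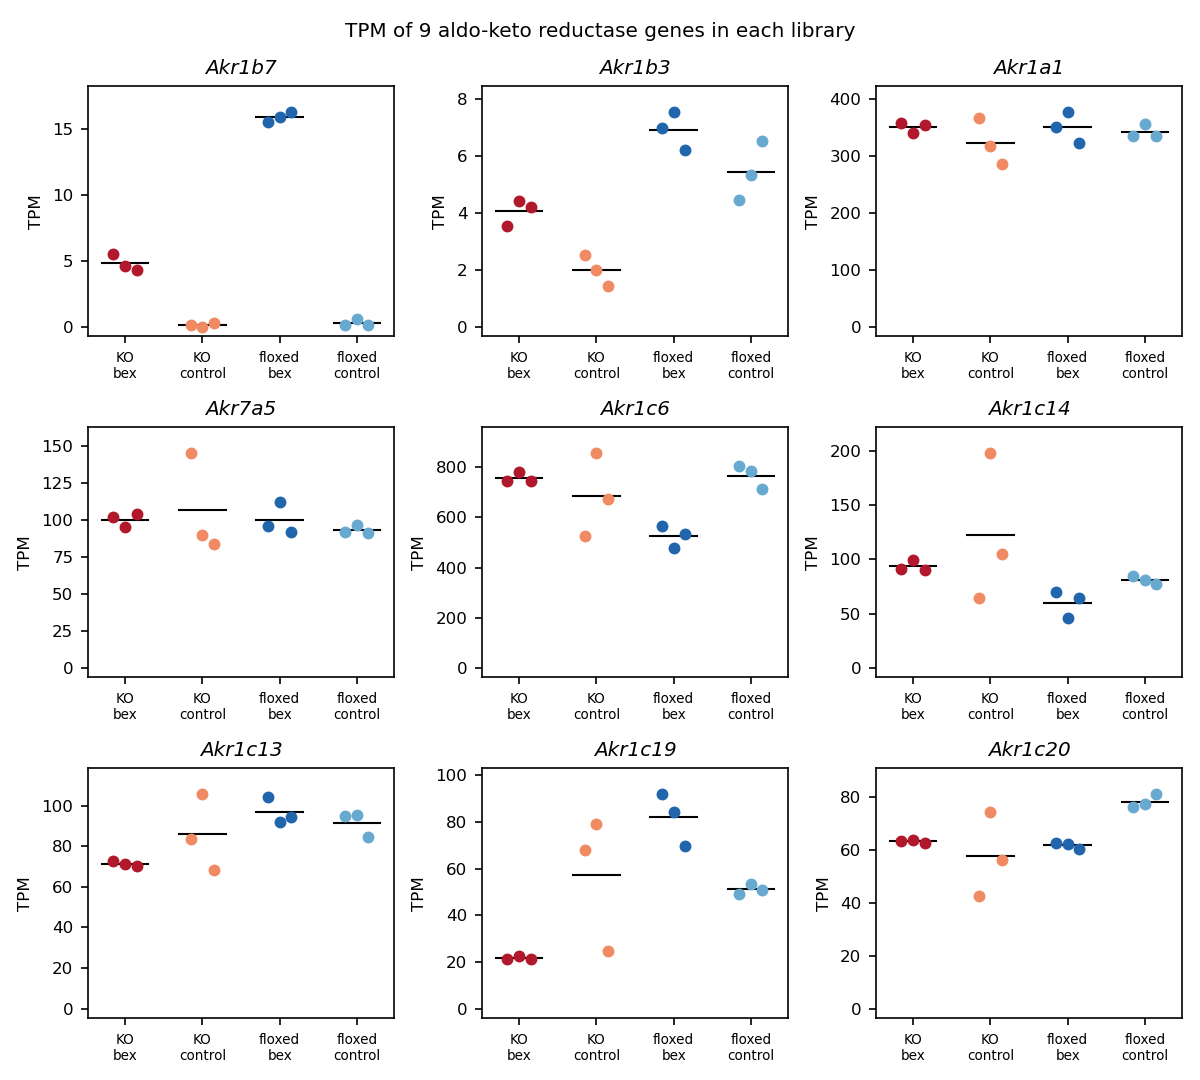
TPM of the 9 genes in each library, with 1 panel per gene and linear axes from 0. Points are libraries, lines are means of 3 libraries, KO is the hepatic Rxra knockout and bex is bexarotene. Akr1b7 stands at 15.5 to 16.3 TPM in treated floxed libraries and 4.31 to 5.51 TPM in treated knockouts, against at most 0.56 TPM without drug, while Akr1a1 overlaps in all groups.

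Akr1b7 had 15.5, 15.9 and 16.3 TPM in treated floxed libraries, against 0.11, 0.56 and 0.12 TPM in floxed controls. The groups were far apart, and the fitted difference on the log2(TPM + 1) scale was 3.79 ± 0.17 (SE). This scale understates the change of a gene near 0 TPM. Across 21 other ways of fitting, the value lay between 2.0 and 5.69, the extremes coming from pseudocounts of 5 and 0.1.

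In knockout mice Akr1b7 also rose with bexarotene, to a lower level. It had 5.51, 4.63 and 4.31 TPM in treated knockouts, against 0.11, 0.00 and 0.31 TPM in knockout controls. Every treated library lay above every control, at a log2(TPM + 1) difference of 2.36 ± 0.22 (SE, adjusted p = 0.0033 in limma over all tested genes). Fitted with these groups alone, the adjusted p was 0.098. The treated knockout counts as 1 sample, whose spread was taken from the other groups.

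Under bexarotene, Akr1b7 was lower in knockout than in floxed libraries, at 4.31 to 5.51 against 15.5 to 16.3 TPM. The log2(TPM + 1) difference was -1.54 ± 0.22 (SE, limma, adjusted p = 0.011), and with a pseudocount of 0.1 the adjusted p was 0.43. This difference, and that of the bexarotene effects below, use the treated floxed values that led to the choice of the list. Their p-values therefore carry no independent weight. Without bexarotene the genotypes overlapped near 0 TPM, and the difference was -0.11 ± 0.17 (SE, adjusted p = 0.83). The bexarotene effect in knockout minus that in floxed mice was -1.43 ± 0.28 (SE), which did not pass the test across genes (limma, adjusted p = 0.13). It passed in 9 of 19 other ways of fitting. With averaged samples these were a pseudocount of 5, no filter on low values and leaving out knockout control 5 (limma, adjusted p = 0.048). The rest kept near-identical libraries apart and counted them as replicates, as with 12 separate libraries (limma, adjusted p = 0.0053).

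Akr1b7 is also abundant in the adrenal cortex. The summed TPM of 4 adrenal markers was 0.12 to 0.21 in treated knockouts, 0.07 to 0.13 in knockout controls, 0.16 to 0.17 in treated floxed mice and 0.24 to 0.48 in floxed controls. Cyp11a1, which starts steroid synthesis there, was listed at 0 in every library.

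The other Akr1b members stayed low. Akr1b8 and Akr1b10, whose coding sequences match that of Akr1b7 at 84.8% and 89.2% of positions, were under 1 TPM in every library. No stretch of 75 bases in the Akr1b7 coding sequence occurs in another annotated transcript. Only exact matches of that length were sought, and how reads were assigned among the relatives was not tested.

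Akr1b3, aldose reductase, turns glucose into sorbitol. It had 2.50, 1.98 and 1.44 TPM in knockout controls, against 4.44, 5.31 and 6.51 TPM in floxed controls. All knockout libraries lay below all floxed ones, and Akr1b3 fell by 1.18 on the log2(TPM + 1) scale (SE 0.20, limma, adjusted p = 0.016). The call was lost in 5 of 21 other ways of fitting. The adjusted p was 0.16 when floxed control 4 was left out, 0.069 when the averaged floxed controls 1 and 3 were, and 0.054 when knockout control 2 was. It was 0.062 with no filter on low values and 0.084 with these groups alone.

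With bexarotene Akr1b3 had 3.55, 4.40 and 4.19 TPM in knockouts, above all knockout controls. The log2(TPM + 1) difference to them was 0.78 ± 0.25 (SE), which did not pass the test (limma, adjusted p = 0.33). In floxed mice the treated libraries had 6.96, 7.54 and 6.21 TPM and overlapped the controls, with a difference of 0.25 ± 0.20 (SE, adjusted p = 0.61). Treated knockouts stood below all treated floxed libraries, with a difference of -0.64 ± 0.25 (SE, adjusted p = 0.34). With 12 separate libraries the rise in knockouts (adjusted p = 0.011) and the gap between treated genotypes (adjusted p = 0.019) passed. Of the 75-base stretches in the Akr1b3 coding sequence, 82.8% also occur in transcripts of Gm12138, Gm6644 or Gm6736, which are not analysed here, so its level is uncertain.

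Akr1a1, aldehyde reductase, reduces glucuronate to gulonate on the way to ascorbate, which mice make in the liver. It was the steadiest member, at 340.0 to 356 TPM in treated knockouts, 285 to 366 TPM in knockout controls, 322 to 377 TPM in treated floxed mice and 334 to 355 TPM in floxed controls. All groups overlapped. Its largest log2(TPM + 1) difference among the 4 comparisons was 0.13 ± 0.17 (SE, bexarotene in knockouts, adjusted p = 0.90).

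Akr7a5, known for reducing succinic semialdehyde and aflatoxin dialdehyde, lay at 95.2 to 104 TPM in treated knockouts and 83.9 to 146 TPM in knockout controls, against 92.1 to 112 TPM in treated floxed mice and 91.3 to 96.6 TPM in floxed controls. The high value was knockout control 1 alone. No comparison of Akr7a5 passed the test. The differences between groups ran between -0.04 and 0.15 on the log2(TPM + 1) scale, and the difference of the bexarotene effects was -0.14. Without knockout control 1 the genotype difference without drug was -0.09 in place of 0.15.

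**Figure D2:**
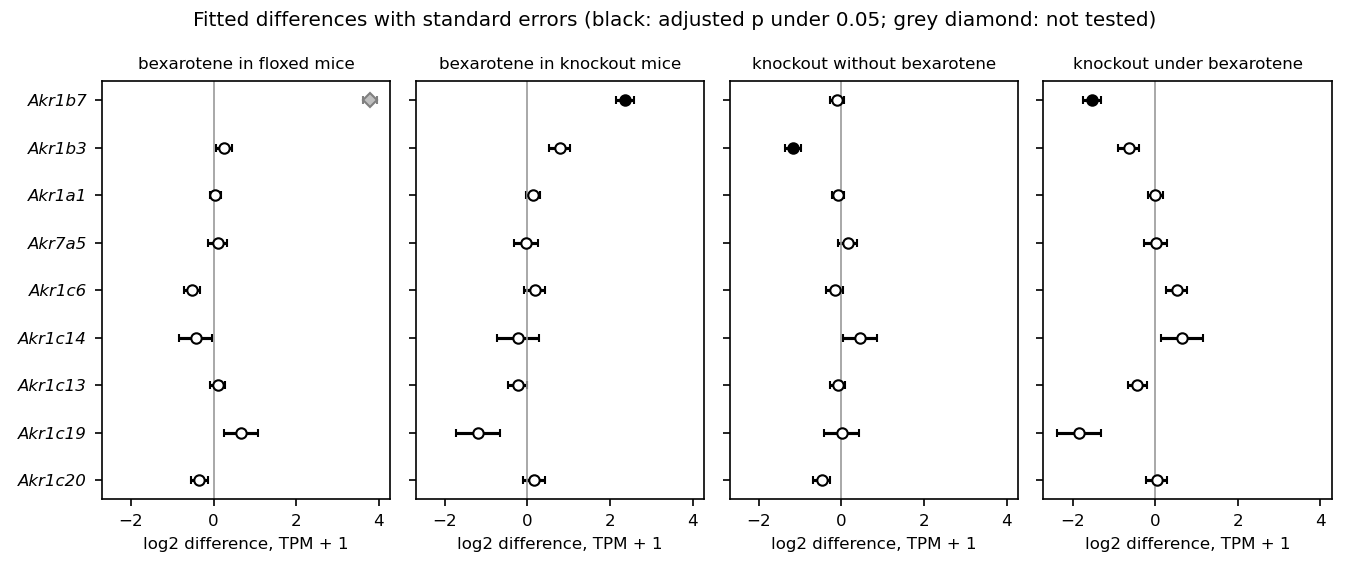
Fitted log2(TPM + 1) differences (points) with standard errors (bars) of the 9 genes in the 4 comparisons between groups. Black points had an adjusted p under 0.05 over all tested genes, open ones did not, and the grey diamond is Akr1b7 in floxed mice (3.79), shown with no test. Akr1b7 is black in 2 panels, at 2.36 and -1.54, and Akr1b3 in 1, at -1.18, while the Akr1c members are open in all 4. The -1.54 rests on the treated floxed values that led to the choice of the list.

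Akr1c6, a 17β-hydroxysteroid dehydrogenase, had 567, 479 and 536 TPM in treated floxed libraries, against 804, 785 and 712 TPM in floxed controls. The treated libraries were all lower, at a log2(TPM + 1) difference of -0.52 ± 0.20 (SE), which did not pass the test (limma, adjusted p = 0.27). In knockouts it had 744, 781 and 744 TPM with bexarotene, against 524, 858 and 674 TPM without, and these groups overlapped. Treated knockouts stood above treated floxed libraries by 0.52 ± 0.25 (SE, adjusted p = 0.49). With 12 separate libraries the adjusted p was 0.040 for the lower level in treated floxed mice and 0.036 for the gap between treated genotypes.

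Akr1c6 made up 51.0 to 52.7% of the summed TPM of the 9 genes in treated knockouts, 40.4 to 51.9% in knockout controls, 37.6 to 42.5% in treated floxed mice and 49.5 to 52.2% in floxed controls. The summed TPM itself was 1455 to 1482 in treated knockouts, 1297 to 1725 in knockout controls, 1261 to 1364 in treated floxed mice and 1438 to 1550 in floxed controls. The sum was lower in all 3 treated floxed libraries than in any floxed control. Akr1a1 took 25.5 to 29.5% in treated floxed mice, against 21.7 to 23.2% in floxed controls, at overlapping TPM.

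**Figure D3:**
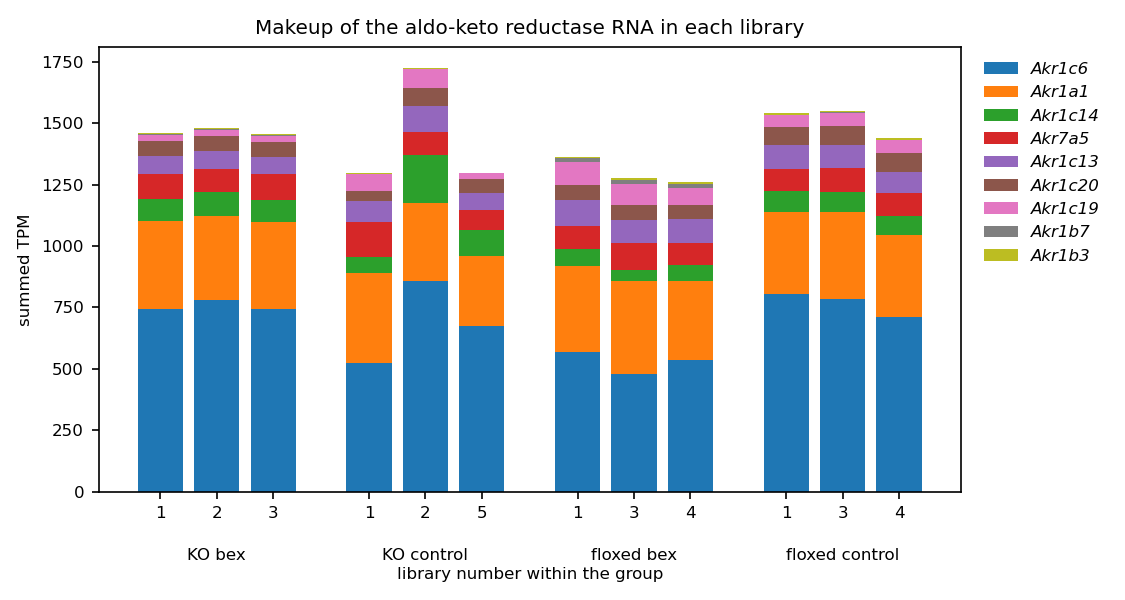
Summed TPM of the 9 genes in each library, split by gene (stacked bars from 0). Libraries are grouped by genotype (KO, the hepatic Rxra knockout, or floxed) and by bexarotene (bex) or control. Treated floxed libraries reach 1261 to 1364 TPM, below the 1438 to 1550 TPM of floxed controls, and knockout control 2 is the highest at 1725 TPM.

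Akr1c19, of the same cluster, differed between groups in opposite senses in the 2 genotypes, without passing the test. In floxed mice it had 92.1, 84.2 and 69.7 TPM with bexarotene, against 49.1, 53.3 and 51.0 TPM in controls. In knockouts it had 21.3, 22.7 and 21.5 TPM with bexarotene, against 68.2, 79.4 and 24.9 TPM in controls. Treated libraries were all higher in floxed mice and all lower in knockouts, though knockout control 5 lay close to the treated knockouts.

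On the log2(TPM + 1) scale they were 0.66 ± 0.42 for bexarotene in floxed mice (SE, limma, adjusted p = 0.52) and -1.20 ± 0.53 in knockouts (SE, adjusted p = 0.56). Between treated genotypes the difference was -1.85 ± 0.53 (SE, adjusted p = 0.17), and between the bexarotene effects it was -1.86 ± 0.68 (SE, adjusted p = 0.45). Without knockout control 5 all 4 passed, at 0.66 (adjusted p = 0.046), -1.71 (0.0072), -1.85 (0.0031) and -2.37 (0.0066). The value in floxed mice stayed the same there, and its SE was 0.14 in place of 0.42, because the groups share 1 estimate of the spread. That library was the one whose clock gap was negative among knockout controls, and the part of the clock genes in these values was not tested. Knockout and floxed controls overlapped, with a difference of 0.01 ± 0.42 (SE, adjusted p = 0.99).

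Akr1c14, a 3α-hydroxysteroid dehydrogenase, had 90.5 to 99.3 TPM in treated knockouts and 63.9, 199 and 105 TPM in knockout controls. In treated floxed mice it had 45.9 to 69.7 TPM, below the 77.1 to 85.1 TPM of floxed controls. The floxed difference was -0.43 ± 0.41 and that between treated genotypes 0.66 ± 0.51 on the log2(TPM + 1) scale (SE, limma), with adjusted p = 0.68 and 0.76. Knockout controls were the widest group, with an SD of 69.0 around 122 TPM (n = 3), and library 2 was the highest.

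Akr1c20 had 62.5 to 63.6 TPM in treated knockouts and 42.7 to 74.5 TPM in knockout controls. Treated floxed mice had 60.3 to 62.7 TPM, against 76.2 to 81.2 TPM in floxed controls. Both the treated floxed libraries (-0.35 ± 0.20) and the knockout controls (-0.48 ± 0.20) lay below floxed controls without overlap on the log2(TPM + 1) scale, with adjusted p = 0.47 and 0.28 (SE, limma). Its coding sequence matches that of Akr1c6 at 92.3% of positions, but the 2 share no stretch of 75 bases.

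Akr1c13 had 70.3 to 72.5 TPM in treated knockouts and 68.2 to 106 TPM in knockout controls, against 91.7 to 104 TPM in treated floxed mice and 84.7 to 95.2 TPM in floxed controls. Treated knockouts lay below treated floxed libraries without overlap, with a difference of -0.43 ± 0.23 on the log2(TPM + 1) scale (SE, limma, adjusted p = 0.56). Akr1c13 and Akr1c12 match at 96.2% of coding positions and share 22.9% of their 75-base stretches, so reads could be split between them. Their summed TPM was 108 to 109 in treated knockouts, 109 to 166 in knockout controls, 147 to 172 in treated floxed mice and 136 to 159 in floxed controls. The pair thus kept the order of Akr1c13 alone, with treated knockouts below treated floxed libraries. Upstream of the start the pair match at 92.5% of positions, against 57.5% for Akr1c13 and Akr1c19.

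Within knockout controls, library 2 was the highest of the 3 for each of the 5 Akr1c members. Library 1 was the lowest for Akr1c6, Akr1c14 and Akr1c20, and library 5 the lowest for Akr1c13 and Akr1c19. The summed TPM of all Akr1c genes in the table was 829, 1377 and 969 in libraries 1, 2 and 5. Library 2 was thus high across these genes, while the order of libraries 1 and 5 differed by gene. The spread within this group limits every comparison that uses it. Because the groups share 1 estimate of the spread, it also widens the SE of comparisons that do not.

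Of the 7 other aldo-keto reductase genes in the table, 3 passed the filter on low values and none was called in any of the 5 comparisons. Akr1d1, the 5β-reductase of bile acid and steroid hormone metabolism, had 96.0, 99.4 and 89.7 TPM in treated knockouts, against 22.6, 48.7 and 71.0 TPM in knockout controls. The treated libraries were all higher, by 1.13 ± 0.51 on the log2(TPM + 1) scale (SE, limma, adjusted p = 0.57). Akr1c12 was lower in treated knockouts than in treated floxed libraries, at 35.7 to 38.0 against 52.9 to 68.0 TPM, with a difference of -0.70 ± 0.25 (SE, adjusted p = 0.28). Akr1e1, known for reducing 1,5-anhydrofructose, overlapped in all 4 comparisons between groups. Akr1b8, Akr1b10, Akr1c18 and Akr1c21 were under 1 TPM throughout.

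With bexarotene in floxed mice, where 2.12% of all 11018 tested genes were called in either direction, Akr1b7 is left out of the count because its response there led to the choice of the list. None of the other 8 members was called there (limma), and 1 of them had an unadjusted p under 0.05, against 15.4% of all genes. In knockouts 1 of the 9 members rose, which was Akr1b7 itself. None of the other 8 was called there, against 0.517% of all genes. Knockout against floxed without drug called 0 higher and 1 lower, which was Akr1b3, against 3.76% of all genes. Under bexarotene the 1 call was again Akr1b7, lower. None of the other 8 was called under bexarotene, against 1.93% of all genes. None was called in the difference of the bexarotene effects (limma), where 0.2% of all genes were. Of the 8 members other than Akr1b7, 1 had an unadjusted p under 0.05 there, against 9.34% of all genes. Libraries of the groups did not overlap for 5 of the 9 members, Akr1b7 included, with bexarotene in floxed mice, against 35.3% of all genes, and for 3 in knockouts, against 28.5%. Between genotypes they did not overlap for 2 without drug, against 25.3% of all genes, and for 6 under bexarotene, against 42.4%. Akr1b7 was among the 3 and among the 6. The median log2(TPM + 1) difference of the members was 0.10 for bexarotene in floxed mice and 0.13 in knockouts, against 0.06 and 0.10 over all tested genes. It was -0.08 between genotypes without drug and 0.01 under bexarotene, against 0.00 and 0.04. The counts were read against these shares only as a description. Without knockout control 5, Akr1c19 was also called, higher in floxed mice, where 5.02% of all genes then were. The 9 members then gave 1 higher and 1 lower in knockouts, against 2.26% of all genes. They gave 2 lower in knockout against floxed under bexarotene, against 3.95%, and 2 lower in the difference of the bexarotene effects, against 1.91%. In each of these counts of the 9, 1 call was Akr1b7 and 1 was Akr1c19.

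The targets of LXR and FXR share known inducers with Akr1b7. With bexarotene in floxed mice, 5 of 7 tested rose and none fell, against 2.12% of all genes. They were Abcg5 and Abcg8, which export sterols, Srebf1, a regulator of lipid synthesis, Slc51b, a bile acid exporter, and Abcb11, the bile salt pump. Slc51b passed the filter on low values only through the treated floxed libraries, at 4.26, 4.38 and 4.64 TPM. It was under 1 TPM in every library of the other groups, so its calls here and below carry no independent weight. Srebf1 had 177, 179 and 240.2 TPM in treated floxed libraries, against 46.0, 47.1 and 62.3 TPM in controls, a log2(TPM + 1) difference of 1.85 ± 0.31 (SE, limma, adjusted p = 0.024). In knockouts none of the 7 was called by limma, and 3 had an unadjusted p under 0.05, against 9.17% of all genes. Without knockout control 5, 1 was called higher in knockouts and 5 in floxed mice, against 2.26% and 5.02% of all genes. The floxed count was 2 without floxed control 4 and 3 without the averaged floxed controls 1 and 3 or any 1 treated floxed sample, and Srebf1 was not called in any of these. In knockouts Srebf1 had 43.1, 42.7 and 44.3 TPM with bexarotene, against 24.8, 26.3 and 12.5 TPM without (limma, adjusted p = 0.43). Abcb11 had 201, 207 and 212 TPM with bexarotene in knockouts, against 66.0, 68.9 and 96.6 TPM without. In floxed mice it had 305, 288 and 392 TPM with bexarotene, against 120, 125 and 163 TPM without. Its bexarotene effect in knockout minus that in floxed mice was 0.23 ± 0.35 (SE), and the other 6 of the list had negative values. The median log2(TPM + 1) difference of the 7 was 0.70 in knockouts, against 0.10 over all tested genes, and 1.62 in floxed mice, against 0.06. Under bexarotene, Slc51b, Srebf1 and Abcg5 were lower in knockout than in floxed mice and passed the test, against 1.93% of all genes. No member of the list was called higher. Of these 3 calls, 1 was left without either floxed control sample or any 1 treated floxed sample, and 2 without knockout control 2.

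Of 32 tested targets of the drug sensors CAR and PXR, 10 rose and none fell with bexarotene in knockouts, against 0.517% of all genes. In floxed mice 6 rose and none fell, against 2.12% of all genes. Cyp2c29, a cytochrome P450, had 1289, 1253 and 1307 TPM in treated knockouts, against 87.1, 69.5 and 69.0 TPM in knockout controls (log2(TPM + 1) difference 4.08 ± 0.17, SE). In floxed mice it had 2935, 3131 and 2929 TPM with bexarotene, against 2079, 2148 and 2204 TPM without. Treated knockouts thus stayed below floxed controls for Cyp2c29. Gsta1 went the other way, with 125, 123 and 127 TPM in treated knockouts, against 14.3, 13.2 and 17.8 TPM in treated floxed libraries. Without drug Gsta1 had 5.62, 4.56 and 5.41 TPM in knockout controls and 7.54, 5.01 and 10.6 TPM in floxed controls. Its bexarotene effect in knockout minus that in floxed mice was 3.55 ± 0.35 (SE). Gsta2, a glutathione transferase, had 207, 194 and 206 TPM in treated floxed libraries, against 40.1, 40.9 and 38.1 TPM in controls. Without drug, 12 of the 32 were lower and 1 higher in knockout than in floxed mice, against 3.76% of all genes. Under bexarotene 6 were lower and 2 higher in knockout, against 1.93% of all genes. With 1 sample left out, 3 to 6 were lower and 1 to 4 higher there. In the difference of the bexarotene effects 5 passed the test with a positive value and none with a negative one, against 0.2% of all genes. Over all 32 the values were positive for 20 and negative for 12. Cyp2c29 was among the 5 (3.61 ± 0.21, SE, limma, adjusted p = 0.0012). With 1 sample left out, the number that rose ran between 6, without treated floxed sample 1 or 3, and 14, without knockout control 5, in knockouts. In floxed mice it ran between 3, without floxed control 4, and 8, without knockout control 1 or 5. The calls in the difference ran between 2, without treated floxed sample 1, and 8, without knockout control 5. They were 3 without treated floxed sample 3 or knockout control 2. Without knockout control 5, 2.26% of all genes were called in knockouts, 5.02% in floxed mice and 1.91% in the difference. Without knockout control 1, 2.74% were called in floxed mice. Without treated floxed sample 1, 0.245% were called in knockouts and 0.0545% in the difference. Members of the Cyp2c and Gsta families are alike in sequence, so reads may be split among them. Nr1i2, which encodes PXR, had 38.7, 37.9 and 38.4 TPM in treated knockouts, against 21.4, 19.7 and 20.4 TPM in knockout controls. It had 56.1, 56.8 and 56.9 TPM in treated floxed libraries, against 34.8, 34.5 and 34.0 TPM in floxed controls, and rose in both genotypes (limma, adjusted p = 0.041 in knockouts and 0.017 in floxed mice). Leaving out either floxed control sample or any 1 treated floxed sample ended both of these Nr1i2 calls, and leaving out knockout control 2 ended that in knockouts.

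Other enzymes that handle aldehydes and ketones were counted in the same way. Of 14 other carbonyl reductases and polyol enzymes, 1 rose with bexarotene in floxed mice, against 2.12% of all genes. This was Cbr1, a carbonyl reductase, with 157, 150.1 and 129 TPM in treated floxed libraries, against 57.3, 55.3 and 65.7 TPM in controls (log2(TPM + 1) difference 1.24 ± 0.16, SE, adjusted p = 0.0097). In knockouts Cbr1 had 62.3, 56.3 and 58.1 TPM with bexarotene, against 55.3, 55.3 and 72.3 TPM without, and the groups overlapped. The Cbr1 call in floxed mice was lost without either floxed control sample and without treated floxed sample 1 or 3. The list had 2 calls without knockout control 1 or 5, against 2.74% and 5.02% of all genes. Of 16 aldehyde and alcohol dehydrogenases, Aldh3a2, which oxidises fatty aldehydes, rose in both genotypes and was the single call in each. Over all genes 2.12% were called in floxed mice and 0.517% in knockouts. Aldh3a2 had 32.8, 31.3 and 30.1 TPM in treated knockouts and 9.91, 11.8 and 10.3 TPM in knockout controls, against 172, 158 and 176 TPM in treated floxed and 89.2, 92.3 and 68.7 TPM in floxed controls. The list had 3 higher and 1 lower in floxed mice when knockout control 5 was left out, against 5.02% of all genes. It then had 3 higher in knockouts, against 2.26%. Without knockout control 1 it had 2 higher in floxed mice, against 2.74%. The Aldh3a2 call was lost in floxed mice without floxed control 4 or treated floxed sample 1, and in knockouts without treated floxed sample 1 or 3.

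Of 17 tested partners in steroid metabolism, 2 rose with bexarotene in floxed mice, against 2.12% of all genes. None was called in knockouts (limma), where 4 had an unadjusted p under 0.05, against 9.17% of all genes. The pair were Srd5a1, a steroid 5α-reductase, and Hsd11b1, which regenerates glucocorticoids. Srd5a1 had 168, 168 and 159 TPM in treated floxed libraries, against 58.6, 62.7 and 54.6 TPM in floxed controls. Hsd11b1 had 604, 553 and 620.2 TPM in treated floxed libraries, against 369, 375 and 411 TPM in floxed controls. Treated knockouts had 63.2, 69.7 and 72.5 TPM of Srd5a1, against 18.9, 21.4 and 32.9 TPM in knockout controls. Without drug, 2 were higher and 3 lower in knockout than in floxed mice, against 3.76% of all genes. Among them were Hsd11b1 (1.03 ± 0.12) and Hsd17b2 (-1.33 ± 0.21, log2(TPM + 1) differences with SE). When knockout control 5 was left out, the count was 5 higher and 2 lower in floxed mice, against 5.02% of all genes. It was then 2 higher in knockouts, against 2.26%, and 4 higher and 4 lower between genotypes without drug, against 6.91%. In floxed mice 2.74% of all genes were called without knockout control 1, and 1.6% without knockout control 2 or treated floxed sample 4. Between genotypes without drug 2% were called without knockout control 2 and 2.28% without treated floxed sample 1. The floxed count was 4 without knockout control 1, 1 without knockout control 2 or treated floxed sample 4, and 0 without either floxed control sample or treated floxed sample 1 or 3. Between genotypes without drug none was called without the averaged floxed controls 1 and 3, 1 higher and none lower without floxed control 4, 1 higher and 1 lower without knockout control 2, and 1 higher and 2 lower without treated floxed sample 1. None of the 9 genes of ascorbate and glucuronate synthesis, the pathway of Akr1a1, was called in any comparison with all samples (limma). Over all genes 0.2% to 3.76% were. With bexarotene in floxed mice 3 of the 9 had an unadjusted p under 0.05, against 15.4% of all genes. Between genotypes 3 had it without drug, against 17.0%, and 3 under bexarotene, against 11.8%. In knockouts and in the difference of the bexarotene effects 0 had it, against 9.17% and 9.34%. Without knockout control 5, 1 was called higher in floxed mice, 3 in knockout against floxed without drug and 1 under bexarotene. Over all genes 5.02%, 6.91% and 3.95% were then called. There was also 1 in floxed mice without knockout control 1, against 2.74% of all genes. Between genotypes under bexarotene there was 1 without knockout control 2, against 1.52%. Gulo, the last enzyme of that pathway, had 173, 191 and 157 TPM in treated floxed libraries, against 255, 271 and 226 TPM in controls (adjusted p = 0.16). Of 19 targets of NRF2, the sensor of oxidants, 2 rose and 1 fell with bexarotene in floxed mice, against 2.12% of all genes. Cbr1, also counted among the carbonyl reductases, was 1 of the 2. In knockouts 1, Nqo1, rose, against 0.517% of all genes. None of the 19 was called in floxed mice without either floxed control sample or treated floxed sample 1 or 3. The Nqo1 call in knockouts held without knockout control 5, where the list had 2, against 2.26% of all genes. This Nqo1 call was lost without any other 1 sample except the treated knockout itself, which cannot be left out.

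The genes whose profile over the 9 samples lay nearest to that of Akr1b7 were Ehhadh, Acot2, Acot3, Cyp4a31, Slc22a5 and Acot4, out of 5853 genes with a mean of at least 5 TPM. Likeness was the Euclidean distance between centred log2(TPM + 1) profiles, which ran from 0.79 for Ehhadh to 2.20 for Acot4, and it is a description over few samples. Ehhadh, a peroxisomal enzyme of fatty acid oxidation, had 365, 362 and 367 TPM in treated knockouts and 92.4, 98.8 and 89.9 TPM in knockout controls. In floxed mice Ehhadh had 1838, 1652 and 1772 TPM with bexarotene, against 98.9, 101 and 89.6 TPM without. Its log2(TPM + 1) differences were 1.95 in knockouts and 4.20 in floxed mice, beside 2.36 and 3.79 for Akr1b7. Acot2, Acot3 and Acot4 are acyl-CoA thioesterases, Cyp4a31 a fatty acid hydroxylase and Slc22a5 a carnitine transporter. The Acot and Cyp4a genes have close copies among which reads may be split.

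**Figure D4:**
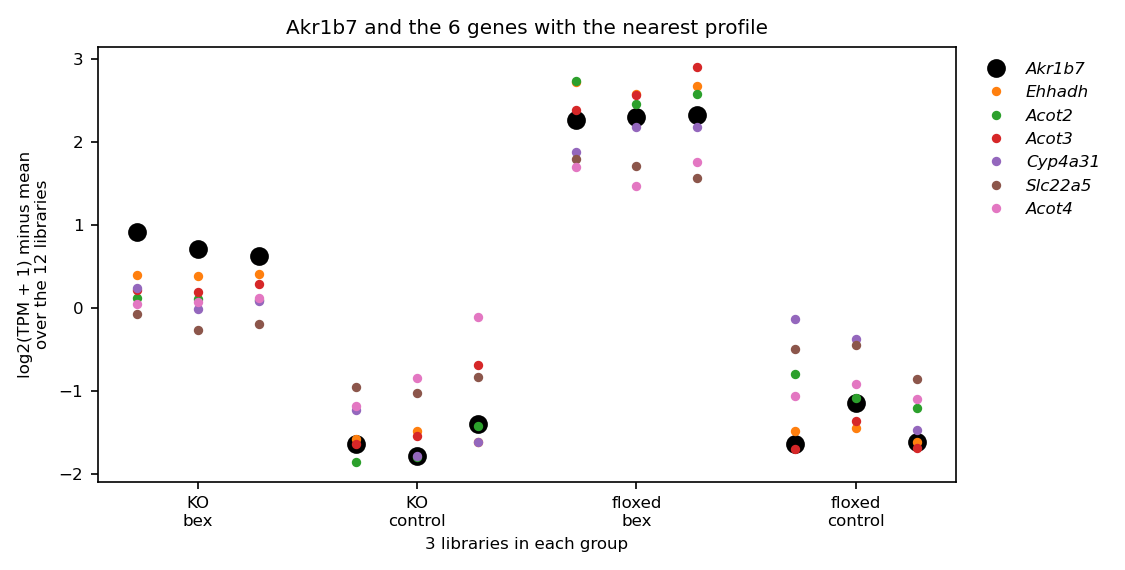
Akr1b7 (large black points) and the 6 genes with the nearest profile (small points), as log2(TPM + 1) minus each gene's mean over the 12 libraries, by library and group (KO, the hepatic Rxra knockout; bex, bexarotene). All 7 genes are highest in treated floxed libraries, and Akr1b7 has the highest centred level of them in the treated knockout libraries.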

How the data were processed

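RNA of 12 hepatocyte libraries was measured. Per the labels' protocols, TRIzol extraction and a DNase I step preceded a stranded Illumina mRNA kit. Per the submitters' processing notes, fastp, HISAT2 and StringTie were used; versions, genome build and strand setting are not given in the sources used here. A table deposited by the authors gives TPM for 26748 gene identifiers, 21810 of them with a symbol here. Because TPM drops the read totals, the depth is unknown, and no counting intervals are given; 9713 to 10470 genes reached 1 TPM per library. The table's columns number libraries differently from the labels, so columns were matched to groups only.

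Pairs of libraries of a group differing by under 0.1 log2 beyond counting noise (4 pairs at 0.0443 to 0.0617, the other 8 at 0.152 to 0.485) were averaged, leaving 9 samples. The 11018 genes that reached 1 TPM in 3 or more libraries were fitted as log2(TPM + 1) over the 4 groups with limma 3.58.1 in R 4.3.3 (trend), and p-values were adjusted by Benjamini-Hochberg over all of them. Called, rose or fell means an adjusted p under 0.05. The code was tested on simulated data. The members, gene lists and this way of processing were chosen with earlier results of these data known. All members, other family members passing the filter, up to 4 called genes of a list with the smallest adjusted p or otherwise its 2 most abundant genes, and the 6 nearest profiles could be named; Abcb11 in floxed mice and some values in further comparisons were added after they were seen. Alternatives changed the averaging, pseudocount, filter, scaling, groups fitted and samples left out. Sequence identity and shared stretches came from GENCODE M21 coding sequences (Python 3.11.15, Biopython 1.88).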

Additional observations from a re-analysis of the deposited data

Results flagged for a closer look

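Akr1c19 drew attention because its treated libraries were all higher than controls in floxed mice and all lower than controls in knockouts. The bexarotene effect in knockout minus that in floxed mice was -1.86 on the log2(TPM + 1) scale, with an SE of 0.68. The difference between genotypes was tested and did not pass (limma, adjusted p = 0.45); over 19 other ways of fitting the adjusted p ran from 0.0066, without knockout control 5, to 0.91.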

How the results depend on the processing

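The counts of called genes over the whole table depended on how near-identical libraries were treated. In the order bexarotene in floxed mice, bexarotene in knockouts, knockout without and with bexarotene, and difference of effects, they were 234, 57, 414, 213 and 22. With 12 separate libraries they were 1062, 1105, 1302, 1589 and 651, and without a filter on low values 140, 875, 231, 1041 and 689. With only the groups compared they were 614, 6, 158 and 263, the last within 1.5 times. Leaving out 1 of the 9 samples at a time gave 43 to 553, 22 to 249, 100 to 761, 103 to 435 and 6 to 210, and leaving out 1 near-identical library from 12 separate ones gave 539 to 859, 551 to 895, 828 to 1110, 962 to 1380 and 289 to 362; the cause was not tested. Without knockout control 5 they were 553, 249, 761, 435 and 210. Leaving out the only treated knockout sample gives no value for comparisons that use it. Quantile normalization moved the median of all genes by -0.13 in bexarotene in knockouts, where 69.8% of calls were then higher in place of 80.7%. Of the members' values under alternatives, 867 kept their side of the threshold, 34 passed newly, 7 lost it and 1 moved; no called value changed sign. No paired analysis was possible because the columns carry other numbers than the labels. TPM gives no depth, so low values such as those of Akr1b7 in controls have no stated precision.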
